A study of Homo sapiens with 3 samples.

Results

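The genes described here encode the dyneins, the dynactin complex and the factors that assemble axonemal dyneins. They were chosen by name, as the protein-coding genes whose symbols begin with DNAH, DNAI, DNAL, DNAAF, DYNC, DYNL or DCTN followed by a number. The choice gave 42 genes of 19951 protein-coding genes in a table of 58735 genes. By the class assigned to each, 19 are cytoplasmic and 23 axonemal. The 6 light chain genes with DYNL symbols were all counted as cytoplasmic. The libraries come from the RPE-1 line, made from retinal pigment epithelium of human origin and kept dividing by telomerase. According to the labels the derivative used carries GFP-tagged Cetn2 to show centrioles and PLK4 under an rtTA-dependent promoter that answers to doxycycline. All 3 libraries had a scramble siRNA and no induction of PLK4, so there is 1 group, siControl_no_induction, with n = 3. The labels do not state whether the libraries are separate cultures, and the spread between them may be technical.

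Dyneins are motors that walk towards the minus end of microtubules. Dynein-1, the cytoplasmic motor, carries organelles, RNA and centrosome components and needs dynactin to move processively. Dynein-2 returns intraflagellar transport trains from the tip of the cilium. Axonemal dyneins form the outer and inner arms that bend motile cilia and sperm tails, and they are assembled in the cytoplasm by dedicated factors before they enter the cilium. RPE-1 cells are widely used for the study of the primary cilium, which is not motile.

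Each library held 46625774 to 60040029 counts. Library 1 stood apart, with 2785 genes that had counts in both other libraries and none in library 1, against 261 such genes for library 2 and 560 for library 3. Levels are given as CPM (counts relative to the scaled library size) or, when genes are compared, as RPKM (CPM per kb of annotated exon). Genes that reached 1 CPM in all 3 libraries are called detected, as 57.7% of all protein-coding genes were. The mesenchymal and simple keratin markers were detected for 4 of 4 genes. Mean levels were 1518 RPKM for VIM, 570 for FN1, 92.2 for KRT8 and 76.4 for KRT18. Of 6 markers of pigment epithelium 3 were detected (MITF, OTX2 and BEST1). TYR had 0 counts in each library, RPE65 had 8, 6 and 0 counts and RLBP1 had 1, 7 and 3 counts. The motile cilium list had 3 of 14 matched markers detected, with summed levels of 16.5, 18.9 and 17.8 CPM over the list. The detected markers were CCNO, MCIDAS and CCDC40, with means of 5.75, 1.14 and 0.269 RPKM. CCNO alone had 7.95, 12.1 and 11.1 CPM. FOXJ1 had 5, 2 and 0 counts, and MCIDAS had 127, 142 and 103 counts.

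The cytoplasmic machinery was expressed almost in full and the axonemal machinery in small part. Of the 19 cytoplasmic members 17 were detected, and of the 23 axonemal members 9 were, where 57.7% of all protein-coding genes were detected. The median level of the cytoplasmic members was 12.3, 12.6 and 12.4 RPKM in libraries 1, 2 and 3, and that of the axonemal members was 0.0342, 0.0453 and 0.0409 RPKM. All protein-coding genes had medians of 1.14, 1.15 and 1.14 RPKM. The cytoplasmic median thus lay above that of all protein-coding genes in every library, and the axonemal median below it.

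The difference of the medians, cytoplasmic minus axonemal, was 6.53, 6.45 and 6.48 on the log2(RPKM + 0.1) scale (mean 6.49 ± 0.04 SD, n = 3). Because the axonemal median lies below the pseudocount, the size of this difference depends on it, with 7.96 for a pseudocount of 0.01 and 3.69 for a pseudocount of 1. Between detected members alone it was 3.24, and with the transcript of the longest coding sequence as length it was 7.997. No test was made between the classes, since genes are not replicates. The classes overlapped: 5 cytoplasmic members, namely DYNC1LI1, DYNC2H1, DYNC2LI1, DYNLRB2 and DYNC1I1, had mean RPKM values below the 7.38 RPKM of DNAL4, the axonemal member with the highest mean per length of annotated exon. DNAL4 overlapped DNAAF5 over the libraries, and DYNC1LI1, at 7.35 RPKM, overlapped DNAL4. With the transcript of the longest coding sequence as length, DNAAF5 (13.8 RPKM) stood above DNAL4 (11.9 RPKM), and DYNC1LI1 (18.01 RPKM) stood above both.

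**Figure D1:**
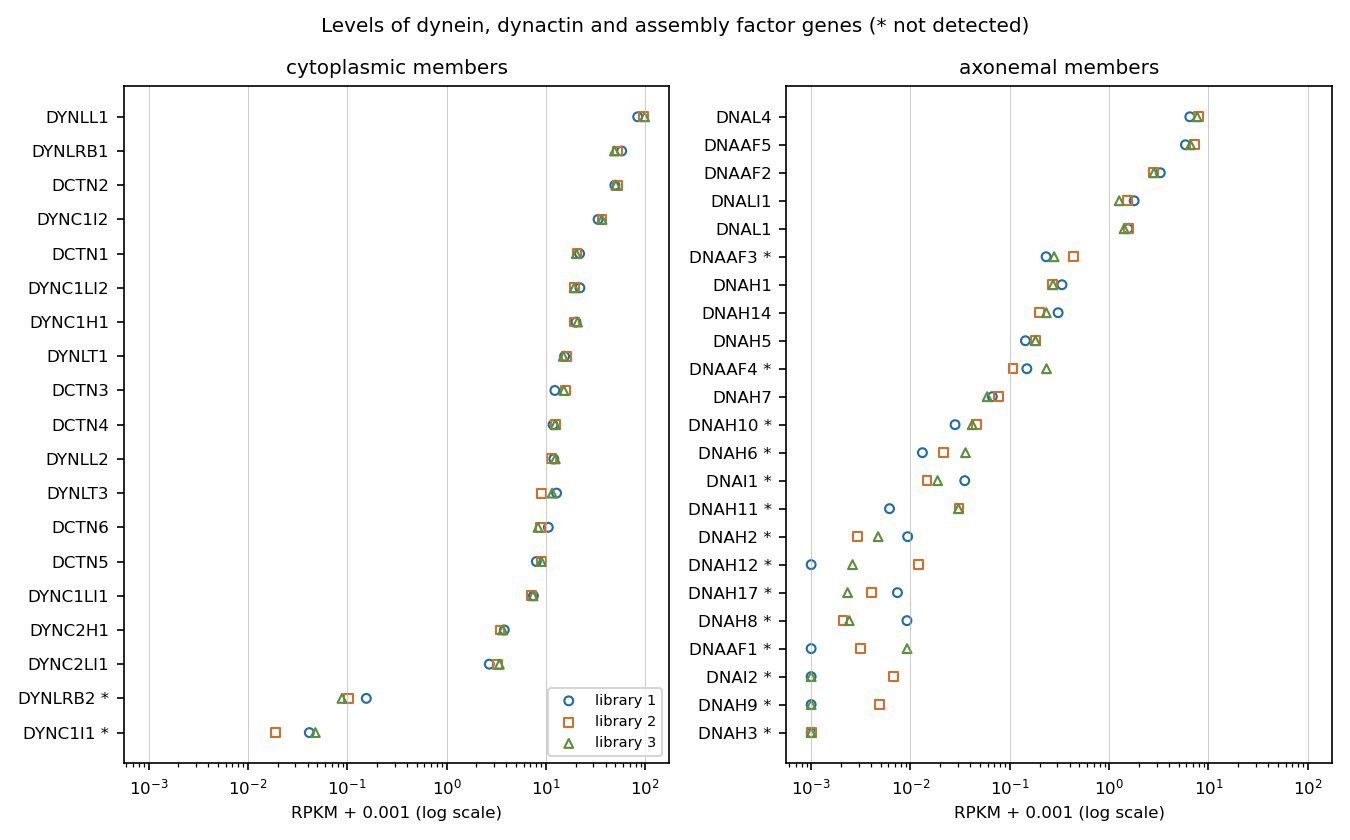
RPKM of each member in each of the 3 libraries, on a log axis after adding 0.001, with cytoplasmic members on the left and axonemal members on the right; an asterisk marks members that were not detected. All cytoplasmic members except DYNLRB2 and DYNC1I1 lie above 2 RPKM, whereas only 5 axonemal members have a mean above 1 RPKM.

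The subunits that build the dynein-1 motor were all expressed by at least 1 gene each. DYNC1H1 (ENSG00000197102, chromosome 14, 101964510 to 102056443, hg38, plus strand) encodes the heavy chain with the motor ring. It had 20.1, 19.4 and 20.8 RPKM in libraries 1, 2 and 3 (20.1 ± 0.710 SD, n = 3). The libraries lay within 1.07-fold of each other. The annotated exons of DYNC1H1 cover 36852 bases, of which the transcript with the longest coding sequence uses 20003, and with that transcript as length its level was 37.1 RPKM.

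The intermediate chains link the heavy chain to cargo adaptors and dynactin, and here 1 of the 2 genes carried nearly all reads. DYNC1I2 (ENSG00000077380, chromosome 2, 171687409 to 171748420) had 33.5, 36.8 and 36.7 RPKM. DYNC1I1, whose product is best known from neurons, had 9, 5 and 10 counts, or 0.0406, 0.0180 and 0.0468 RPKM. DYNC1I2 stood above DYNC1I1 in 3 of 3 libraries, with a ratio of summed counts per length of 1062 (95% exact interval 713 to 1657, counting error only). A processed pseudogene of DYNC1I2, DYNC1I2P1, had 80, 72 and 85 counts, so few reads were assigned to it.

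The light intermediate chains hold the adaptors that join dynein to cargo. DYNC1LI2 had 22.03, 19.3 and 19.3 RPKM and DYNC1LI1 had 7.49, 7.15 and 7.42 RPKM. DYNC1LI1 was lower than DYNC1LI2 in 3 of 3 libraries, by a log2 ratio per length of -1.45 ± 0.09 (SD). The exact two-sided sign-flip test over 3 libraries gave p = 0.25, the smallest it allows, and 0.275 after adjustment over the 11 pairs compared. The same p holds for each pair below whose ratio has 1 sign in all libraries. Of the exon length of DYNC1LI2, 22.2% is shared with a gene on the opposite strand, and whether counting used the strand is not given in the sources used here.

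The light chains are dimers that bind the intermediate chains and, for the LC8 type, many other proteins. They held the highest level of all members. DYNLL1 (ENSG00000088986, chromosome 12, 120469850 to 120498493), an LC8 chain, had 84.0, 96.9 and 98.6 RPKM and lay at the 98.3 percentile of protein-coding genes. Its paralogue DYNLL2 had 12.02, 11.4 and 12.4 RPKM. DYNLL1 stood 7.78-fold above DYNLL2 (log2 ratio 2.96 ± 0.14 SD, higher in 3 of 3 libraries). The size of this ratio rests on length, with 34.7-fold for the transcripts of the longest coding sequence and 3.38-fold with no length. Of the 7 annotated pseudogenes DYNLL1P1 to DYNLL1P7, DYNLL1P1 had 5, 3 and 3 counts and the others 0.

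The roadblock light chains showed the same split into a used and a nearly silent gene as the intermediate chains. DYNLRB1 had 58.0, 52.3 and 49.0 RPKM. DYNLRB2, which in mammals is linked to ciliated cells and testis, had 11, 9 and 6 counts, or 0.155, 0.101 and 0.0876 RPKM. The ratio of summed counts per length was 467 (95% exact interval 318 to 715). Both Tctex light chain genes were used at like levels. DYNLT1 had 15.4, 16.2 and 15.0 RPKM and DYNLT3 had 12.8, 9.08 and 11.6 RPKM. DYNLT1 was higher in 3 of 3 libraries by a log2 ratio of 0.49 ± 0.30 (SD), which was -0.0030 with the longest annotated transcript as length, so their order is not settled.

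**Figure D2:**
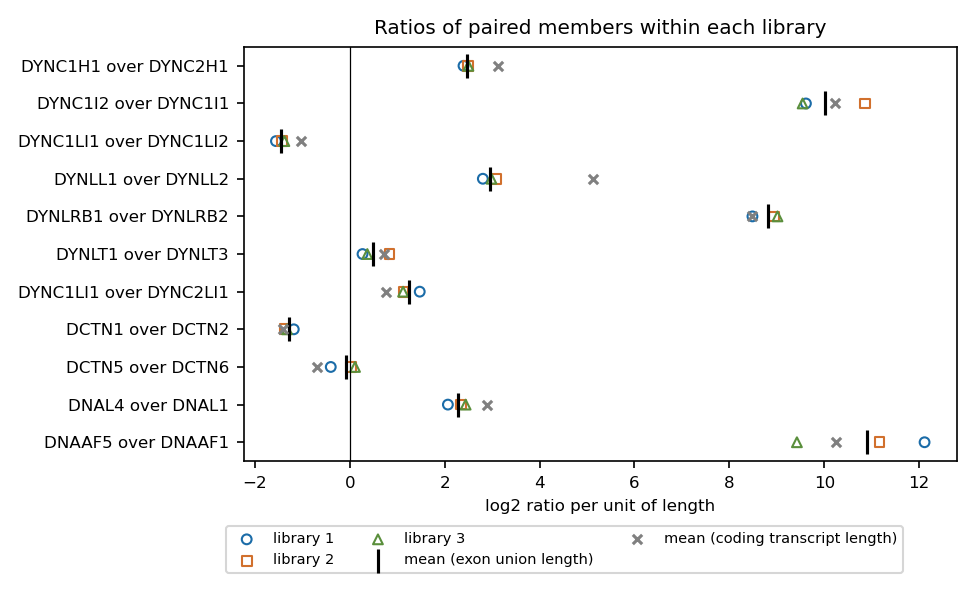
Log2 ratio per unit of length of the first gene over the second in each library, for the 11 pairs compared; the bar is the mean and the cross is the mean with the transcript of the longest coding sequence as length. The ratios of DYNC1I2 to DYNC1I1, DYNLRB1 to DYNLRB2 and DNAAF5 to DNAAF1 lie far to the right, and that of DCTN5 to DCTN6 lies on both sides of 0.

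Both named genes of dynein-2 were detected at lower levels than most of dynein-1. DYNC2H1 (ENSG00000187240, chromosome 11, 103109410 to 103479863), its heavy chain, had 3.82, 3.45 and 3.68 RPKM. DYNC2LI1 (ENSG00000138036, chromosome 2, 43774039 to 43810010), its light intermediate chain, had 2.69, 3.26 and 3.40 RPKM. The heavy chain of dynein-1 stood 5.51-fold above that of dynein-2 (log2 ratio 2.46 ± 0.06 SD, 3 of 3 libraries), or 8.76-fold with the transcripts of the longest coding sequence. DYNC1LI1 stood 2.37-fold above DYNC2LI1 (log2 ratio 1.24 ± 0.20 SD, 3 of 3 libraries).

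The subunits of dynein-2 with other symbols in the table differed widely in level. WDR34, an intermediate chain, had 43.7, 60.6 and 56.5 RPKM. WDR60, its partner intermediate chain, had 3.96, 2.93 and 2.73 RPKM. TCTEX1D2, a light chain, had 1.34, 1.52 and 1.48 RPKM, and 31.1% of its exon length overlaps a same-strand neighbour. All 3 were detected, and WDR34 lay far above WDR60, TCTEX1D2, DYNC2H1 and DYNC2LI1 in each library. Light chains listed with the cytoplasmic members were not part of this comparison, and DYNLL1 lay above WDR34 in each library.

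All 6 dynactin members were detected, and their levels differed several-fold. DCTN2 (ENSG00000175203, chromosome 12, 57530102 to 57547331), which encodes dynamitin of the shoulder, had 49.5, 53.1 and 50.6 RPKM. DCTN1 (ENSG00000204843, chromosome 2, 74361154 to 74392087), which encodes the Glued subunit that grips the microtubule, had 21.9, 20.6 and 20.2 RPKM. Per length DCTN1 stood below DCTN2 in 3 of 3 libraries (log2 ratio -1.29 ± 0.10 SD), although their counts were nearly equal (log2 ratio 0.018 with no length).

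DCTN3, the small shoulder subunit, had 12.3, 15.8 and 15.2 RPKM. The pointed-end subunits followed, with 11.8, 12.6 and 12.4 RPKM for DCTN4, 8.02, 8.97 and 9.01 RPKM for DCTN5 and 10.6, 8.79 and 8.34 RPKM for DCTN6. DCTN5 and DCTN6, whose products pair in the complex, could not be ordered per length of annotated exon. Their log2 ratios were -0.40, 0.03 and 0.11 (exact sign-flip p = 1.00). With the transcripts of the longest coding sequence as length the mean log2 ratio was -0.69 ± 0.27 (SD), and with no length it was 2.60. Their order thus depends on the length used. A same-strand neighbour overlaps 26.0% of the exon length of DCTN5, and how reads in such overlaps were counted is not given in the sources used here. The dynactin genes with other names were likewise all detected, 6 of 6, beside 57.7% of all protein-coding genes. The highest were the capping protein gene CAPZB (87.5 ± 2.32 RPKM) and the Arp1 gene ACTR1A (67.2 ± 5.67 RPKM, SD, n = 3). CAPZA1 had 66.9 ± 6.80, ACTR1B 20.5 ± 3.97, CAPZA2 12.4 ± 0.224 and ACTR10, of the pointed end, 11.97 ± 1.09 RPKM.

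Ordered by mean RPKM, the detected cytoplasmic members ran from DYNLL1 through DYNLRB1, DCTN2, DYNC1I2, DCTN1, DYNC1LI2, DYNC1H1, DYNLT1, DCTN3, DCTN4, DYNLL2, DYNLT3, DCTN6, DCTN5, DYNC1LI1 and DYNC2H1 to DYNC2LI1. The libraries of neighbours overlapped in many places. DYNLRB1 was not set apart from DCTN2, nor DCTN1 from DYNC1LI2 and DYNC1LI2 from DYNC1H1. Each neighbour from DYNLT1 down to DCTN5 also overlapped the next. The remaining neighbours did not overlap over the 3 libraries, but the order depends on the length used. With the transcript of the longest coding sequence as length, DYNC1H1 (37.1 RPKM) stood below DYNLT1 (63.1 RPKM). DCTN5 (10.03 RPKM) likewise stood below DYNC1LI1 (18.01 RPKM), and DYNC2H1 (4.24 RPKM) below DYNC2LI1 (10.7 RPKM).

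The adaptors and regulators of dynein-1 were detected for 16 of 21 genes, or 76.2%, beside 57.7% of all protein-coding genes. NUMA1, which anchors dynein at the cell cortex in mitosis, was the highest at 20.1 ± 0.841 RPKM, and SPDL1, the kinetochore adaptor, followed at 18.5 ± 1.22 RPKM (SD, n = 3). RILP, an adaptor for late endosomes, was the lowest detected at 0.655 ± 0.0755 RPKM. BICDL1, BICDL2, HOOK1, NINL and HAP1 were not detected, and of these BICDL2 and HOOK1 had 0 counts in each library, below the floors of 0.0618, 0.0494 and 0.0641 CPM that 3 counts would give.

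Of the 13 axonemal heavy chain genes 4 were detected, and all 4 stood below 0.5 RPKM. DNAH1 (ENSG00000114841, chromosome 3, 52316319 to 52400491), an inner arm heavy chain, had 225, 225 and 176 counts and 0.334, 0.267 and 0.271 RPKM. DNAH14 had 292, 235 and 214 counts and 0.305, 0.196 and 0.232 RPKM. The levels of DNAH1 and DNAH14 overlapped. DNAH5 (ENSG00000039139, chromosome 5, 13690331 to 13944543), an outer arm heavy chain, had 114, 180 and 139 counts and 0.143, 0.180 and 0.180 RPKM. DNAH7, of the inner arm, had 68, 99 and 58 counts and 0.0657, 0.0764 and 0.0581 RPKM.

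These heavy chain genes have long transcripts, so a CPM of at least 1 is reached at a low level per kb. With a limit of 0.5 RPKM in each library, which 54.3% of protein-coding genes met, 5 axonemal members remained and none was a heavy chain, whereas the cytoplasmic count was 17 under either limit. DNAH1 and DNAH14 had means of 0.291 and 0.245 RPKM, against 20.1 RPKM for DYNC1H1 and 3.65 RPKM for DYNC2H1. With the transcript of the longest coding sequence as length, DNAH14 (0.356 RPKM) stood above DNAH1 (0.308 RPKM).

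The other 9 axonemal heavy chain genes were not detected. DNAH10 had 22, 46 and 32 counts, DNAH11 4, 29 and 22, and DNAH6 8, 17 and 22. DNAH2 had 7, 2 and 3 counts, DNAH17 5, 3 and 1, and DNAH8 6, 1 and 1. DNAH12 had 0, 9 and 1 counts, DNAH9 0, 4 and 0, and DNAH3 0 in each library. The outer arm heavy chains DNAH9, DNAH11 and DNAH17, known from airway cilia or sperm, thus all stayed below 0.5 CPM. For DNAH10, 16.6% of exon length is shared with a gene on the opposite strand, and the antisense gene DNAH10OS had 233, 275 and 233 counts, more than DNAH10 itself. Without strand, reads of the antisense and the sense gene cannot be told apart.

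The intermediate chains of the outer arm were nearly absent. DNAI1 had 6, 3 and 3 counts and DNAI2 had 0, 1 and 0 counts. Further axonemal intermediate chain genes stood apart from them, WDR63, of the inner arm, with 4.24, 5.203 and 4.12 RPKM, and WDR78 with 0.959, 0.685 and 0.660 RPKM. The remaining genes of that list were DNHD1, a dynein heavy chain relative, detected at 0.123, 0.0763 and 0.0642 RPKM, and TCTE3, TCTEX1D4, NME8 and TCTEX1D1, which were not detected. Of these NME8 and TCTEX1D1 had 0 counts in each library. In all, 3 of the 7 genes were detected, or 42.9%, beside 57.7% of all protein-coding genes.

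Both light chain genes among the axonemal members, DNAL4 and DNAL1, were detected. DNAL4 (ENSG00000100246, chromosome 22, 38778508 to 38794198) had 6.49, 7.95 and 7.69 RPKM. DNAL1, which binds the outer arm heavy chain, had 1.55, 1.57 and 1.41 RPKM. DNAL4 stood 4.87-fold above DNAL1 (log2 ratio 2.28 ± 0.19 SD, 3 of 3 libraries), and 1.33-fold with no length. DNALI1 (ENSG00000163879, chromosome 1, 37556919 to 37566857), the light intermediate chain of inner arms, had 1.78, 1.53 and 1.26 RPKM, with library 1 the highest and library 3 the lowest.

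The assembly factors were divided. DNAAF5 (ENSG00000164818, chromosome 7, 726701 to 786475), a HEAT-repeat protein, had 5.86, 7.27 and 6.60 RPKM. DNAAF2, also known as kintoun, had 3.27, 2.81 and 2.82 RPKM. DNAAF3, with 14.5% of exon length overlapped on its own strand and 27.2% on the other, had 37, 88 and 43 counts and fell short of detection in libraries 1 and 3, where it had 0.762 and 0.919 CPM. DNAAF4 had 21, 19 and 32 counts, and a same-strand neighbour overlaps 40.4% of its exon length. DNAAF1 had 0, 1 and 3 counts, and the ratio of DNAAF5 to DNAAF1 in summed counts per length was 2014 (95% exact interval 786 to 7394).

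Docking and assembly genes with other names gave 8 detected of 13 matched, or 61.5%, close to the 57.7% of all protein-coding genes. The highest were RUVBL2 (31.8 ± 2.09 RPKM) and PIH1D1 (16.9 ± 0.876 RPKM, SD, n = 3), chaperone components that also serve other complexes. LRRC6 was the lowest detected at 0.571 ± 0.0414 RPKM. CCDC114, CCDC151, TTC25, CCDC103 and PIH1D3 were not detected, and PIH1D3 had 0 counts in each library. CCDC103 had 4, 11 and 10 counts, and a same-strand neighbour overlaps 88.8% of its exon length.

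The spread of each gene between libraries was tested by asking, with a chi-square statistic, whether its 3 counts divide as the scaled library sizes do, with Benjamini-Hochberg adjustment over 16293 genes. Of the 42 members 31 had the mean count of 10 needed, and 26 of these passed at 0.05, where 68.6% of all genes tested did. Counting error is the only error in this test, and abundant genes can pass with small differences. DYNC1H1, for example, passed (adjusted p = 3.89e-21) with 741, 716 and 768 CPM. Of the 26 members called, library 1 was the farthest from the others in 16, against 66.4% of all genes called. By class, 16 of 17 cytoplasmic and 10 of 14 axonemal members tested were called.

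The widest spreads among called members with a mean count of at least 50 were those of DNAAF3, DNAH14 and DNALI1. DNAAF3 had 0.762, 1.45 and 0.919 CPM, highest in library 2 (ratio of highest to lowest 1.90, adjusted p = 0.00242). DNAH14 had 6.02, 3.87 and 4.57 CPM, highest in library 1 (1.56-fold, adjusted p = 4.67e-06). DNALI1 had 7.95, 6.81 and 5.62 CPM (1.41-fold, adjusted p = 0.000172). Each of these calls was lost when certain libraries were left out. DNAH14 did not pass without library 1 (adjusted p = 0.179) and DNAAF3 without library 2 (0.491). DNALI1 did not pass without library 1 (0.0513) or library 3 (0.0690).

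Among detected cytoplasmic members DYNLT3 varied most, with 40.8, 28.9 and 36.9 CPM and library 2 the lowest (adjusted p = 7.13e-25). It still passed without library 1 (adjusted p = 2.40e-11) and when a further coefficient of variation of 0.05 was allowed for (adjusted p = 0.000452). With that allowance 7 of the 31 members tested passed, where 32.7% of all genes tested did, namely DYNLT3, DCTN3, DCTN6, DNAH11, DNAH14, DNALI1 and DNAAF3. Without library 1 the call was made for 9 members, where 28.1% of all genes tested were called. They were DYNC1H1, DYNLL2, DYNLRB1, DYNLT1, DYNLT3, DCTN2, DNAAF3, DNAAF4 and DNAAF5.

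DNAH11 differed most between libraries among the members tested, by 5.79-fold, with 0.0824 CPM in library 1 and 0.477 and 0.470 CPM in libraries 2 and 3 (adjusted p = 0.00137, or 0.977 without library 1). It rests on 4 counts in library 1. The members did not shift together: among the 17 detected cytoplasmic members the median deviation from the mean of the libraries, in log2(CPM + 0.5), was -0.00037 in library 1, -0.018 in library 2 and 0.015 in library 3. Among the 9 detected axonemal members it was 0.036, 0.053 and -0.067. The median ratio of highest to lowest CPM was 1.11 for these cytoplasmic members and 1.252 for these axonemal members, beside 1.19 for all 12615 detected genes. Such ratios include counting error, which is larger for genes with few counts. DNAH7, for example, had 68, 99 and 58 counts and was not called in the chi-square test (adjusted p = 0.283). Whether the classes differ in spread was not tested.

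**Figure D3:**
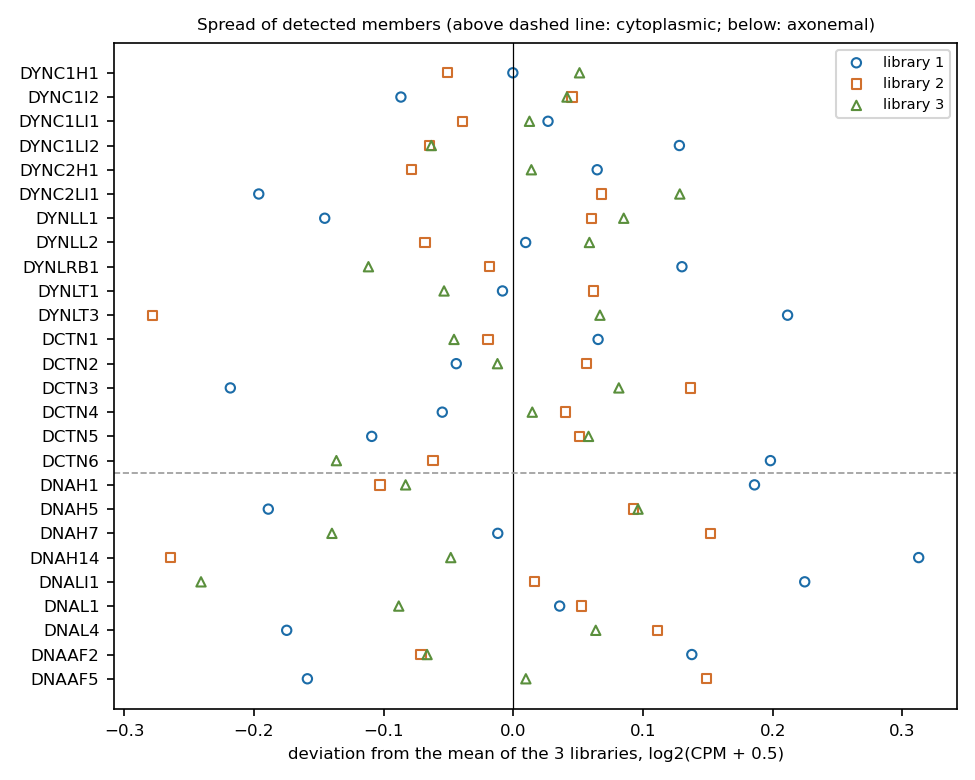
Deviation of each detected member from its mean over the 3 libraries, in log2(CPM + 0.5), with cytoplasmic members above the dashed line and axonemal members below it. DNAH14 has the highest point, in library 1, and DYNLT3 the lowest, in library 2; libraries 1, 2 and 3 are each highest for some members and lowest for others.

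Promoter windows were examined for features that the choice by name did not use. RefSeq gives windows from 250 bases before to 50 after the start site (GRCh38.p14) for 35 of the 42 members, and the first listed window was used for the 10 members with several. The start site used in these cells was not measured. The windows of DYNC1H1 (chr14:101964323-101964622, plus strand) and DNAH5 (chr5:13944639-13944938, minus strand) are shown because they lie near the ends of the range of CpG content among detected heavy chains; CG dinucleotides are in capitals.
DYNC1H1: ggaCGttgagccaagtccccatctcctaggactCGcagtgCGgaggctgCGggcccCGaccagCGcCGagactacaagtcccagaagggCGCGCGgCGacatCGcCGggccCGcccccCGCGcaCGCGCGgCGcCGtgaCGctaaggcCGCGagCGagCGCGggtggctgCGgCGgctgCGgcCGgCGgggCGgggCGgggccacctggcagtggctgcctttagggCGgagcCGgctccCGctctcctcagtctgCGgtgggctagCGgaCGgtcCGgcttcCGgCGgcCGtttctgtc
DNAH5: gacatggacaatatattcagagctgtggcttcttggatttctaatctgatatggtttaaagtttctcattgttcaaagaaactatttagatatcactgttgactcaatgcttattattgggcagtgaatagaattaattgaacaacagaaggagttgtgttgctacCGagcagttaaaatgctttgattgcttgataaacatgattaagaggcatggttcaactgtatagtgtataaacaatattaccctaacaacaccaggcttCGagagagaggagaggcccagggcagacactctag

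The DYNC1H1 window holds 44 CpG dinucleotides and the DNAH5 window 2. Over the classes the CpG content was alike, with a median of 26 (range 13 to 44) in 17 cytoplasmic windows, 22.5 (range 2 to 46) in 18 axonemal windows and 22 in the 14900 windows of all protein-coding genes matched. The axonemal members that were not detected had a median of 26 CpG in 9 windows, and those detected had a median of 19 in 9 windows. DNAH10, with 22, 46 and 32 counts, had the most CpG of all members, 46. DNAH1 and DNAH5, with 2 CpG each, were among the detected axonemal heavy chains.

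The hexamer GTTGCC, the core of the sites bound by RFX factors, which act on many ciliary genes, was then searched on both strands. It was present in 5 of 17 cytoplasmic and 7 of 18 axonemal windows, and in 12.4% of the windows of all protein-coding genes. The 12 windows are shown around their first match, each read so that the hexamer, in capitals, runs 5′ to 3′.
DYNC2H1: cgcgcggtgggcGTTGCCctctcggggcac
DYNC2LI1: gaggccttctggGTTGCCatgggagcgacg
DYNC1I2: caggttttccttGTTGCCggggtttgtagt
DYNLT3: gtgacgcctggcGTTGCCcgaagcccgccc
DCTN3: tgggacagagccGTTGCCaaggtaatcagc
DNAH1: taatcctggaaaGTTGCCaagcaacacagt
DNAH2: tccctgcccgggGTTGCCatggggacgcgt
DNAH6: gctggttgaggcGTTGCCtggcgacgtgtt
DNAH10: gctagggccgccGTTGCCacggacgcccgc
DNAH12: cctggagaggcaGTTGCCaagctgcaaggg
DNAI1: cccggaagtggaGTTGCCgagtcaccgcag
DNAI2: atttgtaggggcGTTGCCaaggcgcttatc

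Of the cytoplasmic stretches the GRCh38.p14 positions, on the strand shown, are chr2:171687438-171687467 (plus strand) for DYNC1I2, chr11:103109363-103109392 (minus strand) for DYNC2H1, chr2:43774019-43774048 (minus strand) for DYNC2LI1, chrX:37847666-37847695 (minus strand) for DYNLT3 and chr9:34620627-34620656 (minus strand) for DCTN3. Of the axonemal heavy chains they are chr3:52316141-52316170 (minus strand) for DNAH1, chr17:7717714-7717743 (plus strand) for DNAH2, chr2:84516410-84516439 (plus strand) for DNAH6, chr12:123762273-123762302 (plus strand) for DNAH10 and chr3:57544423-57544452 (plus strand) for DNAH12. Of the intermediate chains they are chr9:34458559-34458588 (minus strand) for DNAI1 and chr17:74274045-74274074 (minus strand) for DNAI2.

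Both dynein-2 genes held the hexamer, and both were detected. Of the 7 axonemal windows that held it, 6 belonged to members that were not detected, and DNAH1 was the exception. Of all 18 axonemal windows, 9 belonged to members that were not detected. Among these, DNAH8, DNAH9 and DNAH11 lacked the hexamer. Whether the hexamer goes with level was not tested. The window of DNAH1 held 3 matches and those of DYNC2H1, DNAH2, DNAH12 and DNAI2 held 2 each. The GC box GGGCGG, searched in the same way, was in 11 of 17 cytoplasmic and 10 of 18 axonemal windows and in 59.5% of all. The CCAAT box was in 6 of 17, 8 of 18 and 36.3%, and the E-box CACGTG in 1 of 17, 2 of 18 and 8.92%. A match is a run of letters and not a measured binding site.

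**Figure D4:**
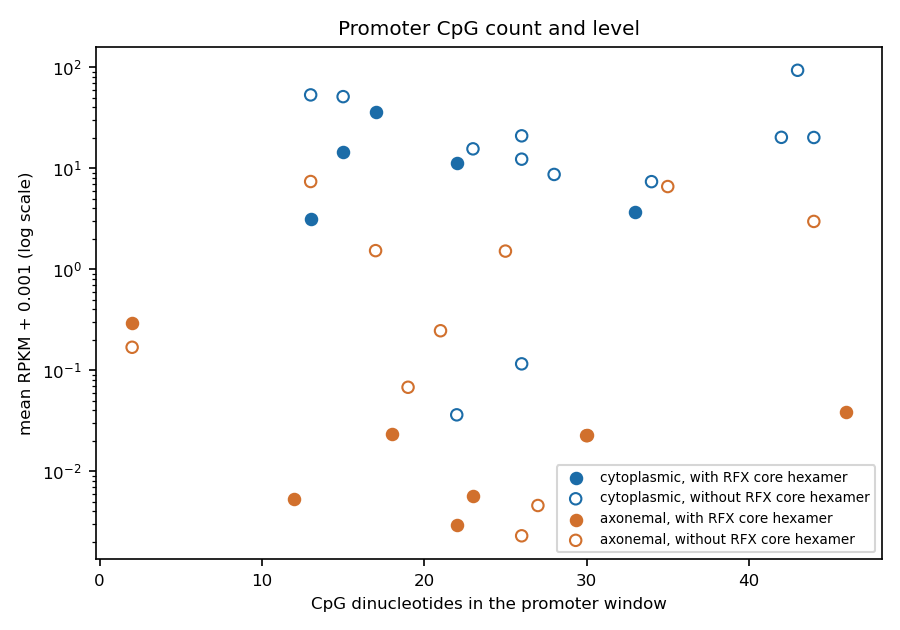
CpG dinucleotides in the first listed promoter window (horizontal axis) and mean RPKM over 3 libraries on a log axis after adding 0.001 (vertical axis) for the 35 members with a window; filled symbols hold the RFX core hexamer. Cytoplasmic and axonemal members cover much the same range of CpG. Filled axonemal symbols lie at low levels. So do the open symbols of DNAH5, DNAH7, DNAH8, DNAH9, DNAH11 and DNAH14, heavy chains that lack the hexamer.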

How the data were processed

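Poly(A) RNA was sequenced from 3 libraries of 1 group. The authors deposited raw whole-number counts of reads per gene. Listed without roles or settings in the submitters' processing notes are featureCounts 1.6.2, STAR 2.5.2a, cutadapt 1.16 and the build hg38. Whether the strand was used or how reads with several alignments were treated is not given in the sources used here. The table held 6 further columns of per-sample counts, which match no sample label given here and were not used.

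From the counts, TMM factors (0.985, 1.01 and 1.00) were computed with edgeR 4.0.16 in R 4.3.3 and CPM with Python 3.11.15. RPKM uses the union of annotated exons of GENCODE release 29, in which all 58735 gene identifiers were found. This union exceeds the length of the transcript with the longest coding sequence by over 1.5-fold for 22 of 42 members and up to 4.63-fold (DCTN3), so RPKM of those members is lower than with that transcript as length.

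With 1 group, no test between groups was possible. The spread test used a chi-square statistic with 2 degrees of freedom in scipy 1.17.1, on genes averaging 10 counts or more. It was tested on simulated counts that held counting error only, with some genes raised in library 1. That simulation does not show how the test behaves with further variation between libraries. Pairs were compared with 0.5 count added. Exact intervals are Clopper-Pearson at 95% confidence, and intervals and floors of 3 counts cover counting error only. The members, lists, pairs and tests were chosen with earlier results of these data known. Every member was to be named, with the 2 highest and the lowest detected genes of each other list, all genes of lists of up to 7, and the 3 called members of widest spread with a mean count of at least 50. Of the listed symbols 2 (C21orf59 and CCDC39) matched no protein-coding row. Promoter motifs were chosen after the levels were known. Alternatives were DESeq2 1.42.0 size factors, unscaled totals, other filters, pseudocounts and lengths, and leaving out each library.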

Additional observations from a re-analysis of the deposited data

How the results depend on the processing

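No paired analysis was possible because there is only 1 group. The number of cytoplasmic members detected was 17 under every alternative run, and that of axonemal members was 9 or 10 except with a limit of 0.5 RPKM (5). Of the motile cilium markers 5 passed a limit of 0.5 CPM. The difference of medians, cytoplasmic minus axonemal, kept its sign throughout. It moved from 6.49 to 7.96 and 3.69 with pseudocounts of 0.01 and 1, 6.96 with no length, 6.85 with the longest transcript, 7.997 with the transcript of the longest coding sequence (an alternative chosen after seeing the data), 3.24 for detected members, 6.62 for motor subunits alone and 6.64 without members sharing over 20% of exon length. Leaving out 1 library gave 6.47 to 6.498.

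The spread was called for 26 members, for 7 with an extra coefficient of variation of 0.05 (32.7% of all genes tested), and for 9 to 21 when 1 library was left out. These were 9 without library 1 (28.1% of all genes), 17 without library 2 (56.8%) and 21 without library 3 (60.7%). DESeq2 size factors gave 26 of 31 members tested (68.6% of all genes) and unscaled totals 24 of 31 (69.3%). With no filter beyond a mean count above 0, 25 of 41 were called (48.0%). With a mean count of at least 50, 23 of 27 were called (75.7%). The allowance for extra variation makes the test stricter by construction; for the libraries left out the cause was not tested. Pair ratios that changed sign were DYNLT1 over DYNLT3 (-0.0030 with the longest transcript), DCTN1 over DCTN2 (0.018 with no length) and DCTN5 over DCTN6 (2.60 with no length, and -0.19 to 0.069 when 1 library was left out, with 0.069 without library 1); the other 8 kept theirs. Depth limits the members at or near 0 counts, whose levels cannot be ordered. Library 1 had counts for 37 members, against 41 in library 2 and 39 in library 3. Its total counts nevertheless exceeded those of library 3, and the cause was not tested.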
